A study of Homo sapiens with 15 samples.

Results

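The tripartite motif (TRIM) ubiquitin ligase family was followed through 15 RNA sequencing libraries of MHCC-97H. This is an established cell line from a human hepatocellular carcinoma. Members were all rows of the deposited count table whose symbol is TRIM followed by a number and at most 1 letter, which gave 71 members of 19143 rows, or 70 without TRIM31. Members were taken by symbol alone, but the family was chosen with earlier results of these data known. TRIM31 was selected on its own measured levels in these libraries. In the first experiment 3 libraries each came from MHCC-97H in an animal model, in a 3D model and in a 2D model. In the second, which the series design calls an additional round, 3 libraries came from heat-treated cells in the 3D model and 3 from treatment controls in the 3D model. No group carries a transgene or a deletion in the labels, and all share the 1 cell line. The labels give neither the temperature, the duration of heating or the time of collection, nor the host animal and the site of growth. They number the libraries as biological replicates without saying that these were separate cultures or animals, so the p-values measure the spread between these libraries.

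TRIM proteins share a RING domain that carries the ubiquitin ligase activity, followed by B-boxes and a coiled coil, and they differ in the domain at the C-terminal end that selects the substrate. Many take part in innate immunity, where several are induced by interferon, while others act on chromatin, the cytoskeleton, muscle or the cell membrane. TRIM31 is best known from the intestine, and work largely in mouse cells showed that it attaches ubiquitin to MAVS, the adaptor of cytoplasmic RNA sensing, and to NLRP3, the sensor of an inflammasome.

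Total counts were 12605539 to 18634295 per library, and the family held 0.163% to 0.298% of them. Levels are given in CPM, the read count scaled to library size, with the 15 libraries scaled together by the TMM method. Levels tracked the GC content of transcripts in heat replicate 1 and in 3D replicates 1 and 2, with rank correlations of 0.597 to 0.8 across genes, against -0.19 to 0.228 in the other 12 libraries. Named results that moved markedly without these libraries, or with a correction for GC content, are given both ways. The 9 liver markers summed to 390 to 499 CPM in the animal libraries, 122 to 248 CPM in 3D and 153 to 162 CPM in 2D. Among them HNF4A, a liver and gut transcription factor, was at 78.3 to 113 CPM in the animal libraries, against 81.3 to 87.6 CPM in the 2D libraries. The secreted protein ALB was at 90.8 to 283 CPM in the animal libraries and at 2.11 to 2.56 CPM in 2D, and APOA1 was at most 3.1 CPM in any library. Of 8 intestinal epithelium genes, KRT20, LGALS4, CDH17 and VIL1 averaged 402, 346, 214 and 74.2 CPM in 2D and CDX2 averaged 6.91 CPM, while CDX1 was at 0 and GPA33 and PHGR1 were at most 0.267 CPM there.

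TRIM31 was among the low members of the family in the 2D libraries and among the high ones in the animal libraries. It stood at 53.6, 88.2 and 31.6 CPM in the animal libraries, at 6.28, 10.1 and 5.28 CPM in the 3D libraries, and at 0.32, 0.791 and 0.854 CPM in the 2D libraries. These levels rest on 892, 1297 and 527 reads in the animal libraries, on 81, 139 and 86 in 3D, and on only 6, 15 and 16 in 2D. No library of one of these groups overlapped another group. After heat treatment TRIM31 was at 35.1, 23.8 and 29 CPM, from 368, 492 and 508 reads, against 1.14, 1.3 and 1.33 CPM in the 3D controls, from 20, 23 and 23 reads. Heated and control libraries were likewise apart, the lowest heated library being 17.9 times the highest control.

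**Figure D1:**
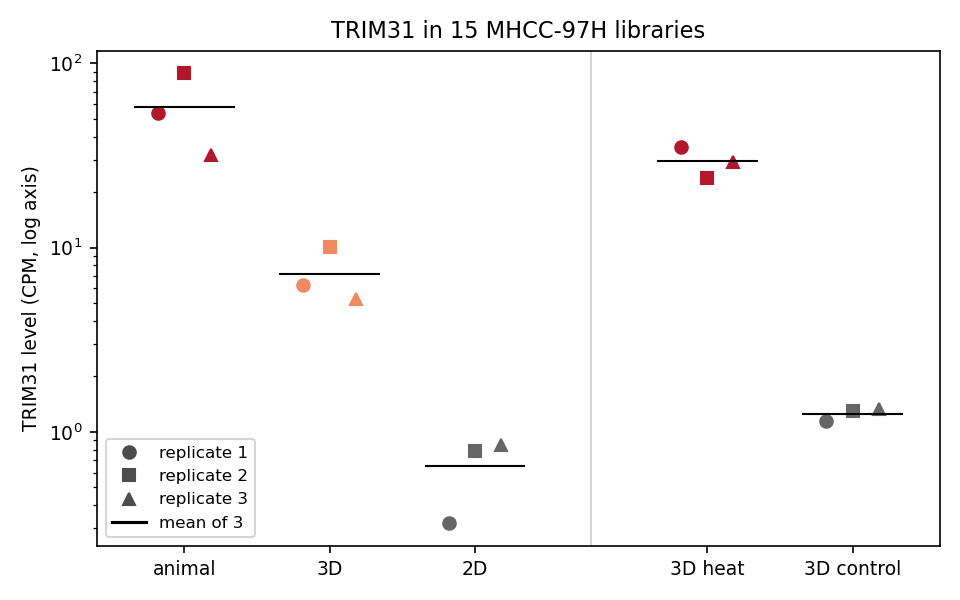
TRIM31 level in CPM on a log axis in each of the 15 libraries, with symbols for replicates 1 to 3 and a bar at each group's mean. The animal libraries sit at 31.6 to 88.2 CPM, above the 3D and 2D libraries, and the heated libraries at 23.8 to 35.1 CPM, above their controls.

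Group means of TRIM31 were 57.8 ± 28.5 CPM in the animal model, 7.22 ± 2.55 CPM in 3D and 0.655 ± 0.292 CPM in 2D, and 29.3 ± 5.68 CPM in heated cells and 1.26 ± 0.104 CPM in 3D controls (SD, n = 3 each). The fitted log2 fold change was 3.40 (SE 0.52) for 3D over 2D, 6.45 (SE 0.57) for animal over 2D, 3.05 (SE 0.47) for animal over 3D and 4.54 (SE 0.31) for heat over control. Because TRIM31 was chosen for these levels, they are a description and carry no test. Without 3D replicates 1 and 2 the values were 2.99 for 3D over 2D, 6.43 for animal over 2D and 3.44 for animal over 3D, and without heat replicate 1 the heat value was 4.38. After correction of every library for its dependence on transcript GC content and length (the GC and length offset), they were 3.19 for 3D over 2D, 6.25 for animal over 2D, 3.06 for animal over 3D and 4.36 for heat over control.

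TRIM31 had the largest log2 fold change of the tested members in each of the 4 comparisons, all 4 of which were in view when it was chosen. The next member was TRIM46 at 2.24 in 3D over 2D, TRIM9 at 2.76 in animal over 2D, TRIM71 at 2.95 in animal over 3D, and TRIM55 at 3.31 in heat over control. Ranked by mean CPM per kilobase of transcript, TRIM31 was number 5 of 71 members in the animal model, 25 in 3D and 43 in 2D, and 12 in heated cells and 43 in 3D controls. Of all reads on the family, TRIM31 held 2.34% in the animal model, 0.29% in 3D and 0.0296% in 2D, and 1.09% after heat and 0.0641% in the controls.

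Ordered over the whole series, the groups ran from animal through heated 3D, 3D and 3D control to 2D. The animal and heated ranges overlapped, at 31.6 to 88.2 and 23.8 to 35.1 CPM, and no other neighbours in that order did. The 3D model of the first experiment lay above the 3D controls of the second, 5.28 to 10.1 CPM against 1.14 to 1.33 CPM, and there the group cannot be told apart from the round of sequencing.

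**Figure D2:**
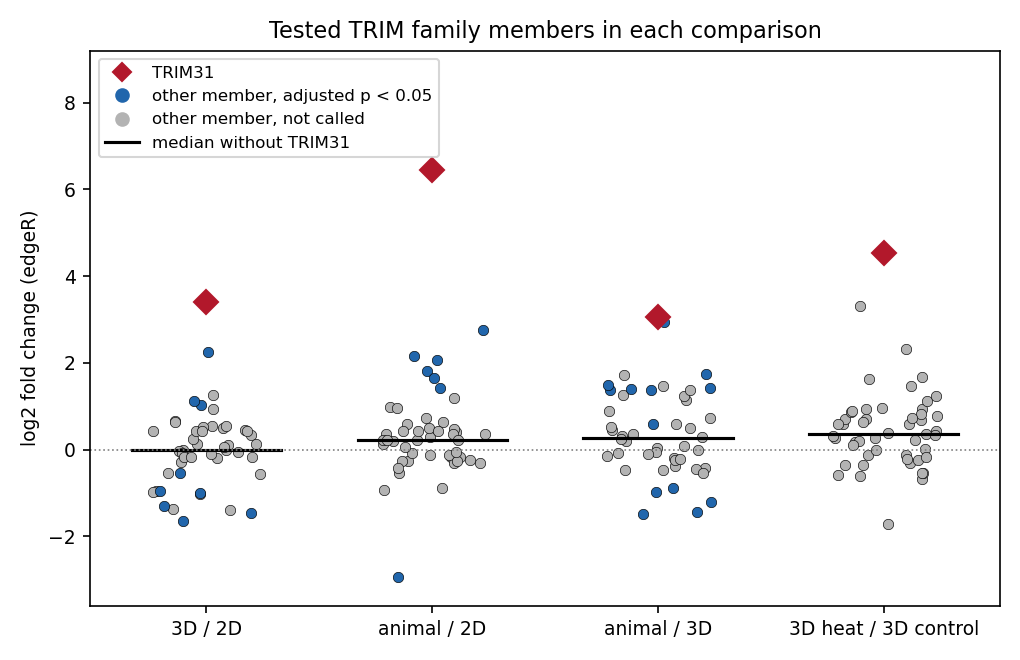
Log2 fold change (group named on top over the other) of every tested TRIM member in 4 comparisons, with TRIM31 as a red diamond, other called members in blue, members not called in grey and a bar at the median without TRIM31. TRIM31 lies highest in each column, next to TRIM71 at 2.95 in animal over 3D, and the medians of the others lie between -0.01 and 0.37.

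TRIM31 lies on the minus strand of chromosome 6 within the major histocompatibility region, which holds a cluster of TRIM genes. In RefSeq's order its neighbours are PPP1R11 and RNF39, itself a RING finger gene, on one side and TRIM40, TRIM10, TRIM15, TRIM26 and TRIM39 on the other. RNF39 was at 1.92, 1.7 and 1.14 CPM in the animal libraries, 1.09, 1.45 and 1.96 CPM in 3D and 0.693, 0.422 and 0.534 CPM in 2D, and at 0.668, 0.581 and 1.54 CPM after heat, against 1.2, 1.3 and 1.51 CPM in the controls. The heated and control libraries of RNF39 overlapped, unlike those of TRIM31. TRIM40 on the other side was at most 0.476 CPM in any library. In the GENCODE 29 annotation the exons of TRIM31 overlap those of TRIM31-AS1 on the opposite strand, and since no strand-marking step is described, reads of the pair cannot be told apart.

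The window around the RefSeq start of TRIM31, 250 bases before it and 50 after, is shown because it is the family member whose level moved most. It is chr6:30113041-30113340 on the minus strand of GRCh38.p14, printed 5′ to 3′ with matches to the NF-kB consensus motif, searched by name on both strands, in capitals. The window of TRIM72, at chr16:31213869-31214168 on the plus strand, is set beside it as that of another member that was higher in the animal model, with matches to GCGTG, the core bound by the AHR receptor, in capitals.
TRIM31: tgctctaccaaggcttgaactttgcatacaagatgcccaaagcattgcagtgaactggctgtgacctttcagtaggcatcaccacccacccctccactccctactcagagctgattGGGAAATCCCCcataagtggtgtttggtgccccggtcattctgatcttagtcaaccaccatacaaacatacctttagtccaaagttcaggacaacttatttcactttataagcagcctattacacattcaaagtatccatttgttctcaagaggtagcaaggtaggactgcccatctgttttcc
TRIM72: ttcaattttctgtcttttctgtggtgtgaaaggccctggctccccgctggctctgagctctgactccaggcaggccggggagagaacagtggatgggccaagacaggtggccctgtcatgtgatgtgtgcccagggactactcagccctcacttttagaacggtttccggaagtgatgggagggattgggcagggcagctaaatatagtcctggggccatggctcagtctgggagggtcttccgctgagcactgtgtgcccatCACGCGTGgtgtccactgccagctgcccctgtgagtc

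RefSeq's table gave at least 1 such window for 54 of the 71 members. Some members have several starts, so these were 73 windows. The NF-kB motif was in 4 of them (5.48%), from TRIM14, TRIM2, TRIM31 and TRIM46, against 11.3% of all 34796 windows. GGGCGG, the GC box bound by SP1, was in 46.6% of the windows of members against 44.9% of all, GCGTG in 31.5% against 36.4%, and ACGTG, the core bound under hypoxia, in 23.3% against 21.4%. The TRIM31 window held none of the searched letters other than the NF-kB motif. Such matches are letters in a window, not evidence of binding, and the start used by these cells is not known.

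By Pearson correlation of log2(CPM + 0.5) over the 15 libraries, the pattern most like that of TRIM31 among 12265 genes of at least 1 CPM was that of ZIC2 (r = 0.95), a zinc finger transcription factor. It was followed by FMNL1 (0.94), a formin of blood cells, LPXN (0.92), a focal adhesion protein, TMEM220 (0.91) and CLDN18 (0.91), a tight junction claudin of stomach and lung. ZIC2 was at 20.0, 20.1 and 19.6 CPM in the animal libraries, 10.4, 8.94 and 8.47 CPM in 3D and 5.86, 6.23 and 6.51 CPM in 2D, and at 14.9, 12.3 and 15.9 CPM after heat, against 8.89, 5.95 and 7.71 CPM in the controls. Its groups were thus ordered as those of TRIM31, over a narrower range. Within the family TRIM39 (0.83), TRIM72 (0.83) and TRIM15 (0.76) were most like TRIM31, and TRIM6 (-0.72), TRIM34 (-0.47) and TRIM14 (-0.44) least like it, among 47 members compared. The libraries of a group share their treatment, so these are 5 groups rather than 15 independent points.

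Markers of other cell types also differed between the groups. The summed level of 8 fibroblast and pericyte genes was 249, 460 and 163 CPM in animal replicates 1 to 3, against 64.5 to 68.9 CPM in 2D, and its highest and lowest animal libraries were those of TRIM31. Only THY1 of these 8 was at 0 in the animal libraries. In heated cells, where TRIM31 was also high, the same sum was 21.1 to 56.0 CPM, against 75.2 to 76.7 CPM in the controls. LUM and DCN carried that difference, while COL1A1 went the other way, at 5.54, 2.13 and 9.41 CPM after heat, against 1.08, 0.68 and 1.04 CPM in the controls. Sums over 9 macrophage and leukocyte genes were 165 to 220 CPM in the animal model, 388 to 495 CPM in 3D and 103 to 109 CPM in 2D, and 244 to 520 CPM after heat and 228 to 246 CPM in the controls. CD68 made up most of each of these sums, with means of 154 CPM in the animal model, 436 CPM in 3D and 100 CPM in 2D. Other genes of that list were ordered differently, CD163, CD74 and LYZ being higher in the animal model than in 3D, at means of 4.86, 21.7 and 5.76 CPM in the animal model, against 0.267, 6.51 and 0.0463 CPM in 3D. Sums over 5 endothelial genes were 5.71 to 16.5 CPM in the animal model and 1.37 to 1.66 CPM in 2D, with EMCN at 0 in both. The 8 intestinal genes summed to 1040 to 1300 CPM in the animal model, 2700 to 4580 CPM in 3D and 975 to 1090 CPM in 2D, and to 571 to 1790 CPM after heat and 1580 to 1670 CPM in the controls, LGALS4 holding 1340 to 3320 CPM of the sum in 3D. The part of these in the TRIM31 levels was not tested, and in bulk RNA a change in the number of cells of a type and a change in RNA per cell cannot be told apart.

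The family as a whole was spread over a wide range of levels. Per kilobase of transcript the highest members over the 15 libraries were TRIM28, the corepressor of zinc finger proteins, at a mean of 218 CPM per kb, TRIM16L at 79.1, TRIM16 at 56.2, TRIM27 at 31.7 and TRIM26 at 21.8. TRIM16 and TRIM16L are near-identical copies, so the split of reads between them is uncertain. At the other end, 9 members had 0 reads in every library and 12 had at most 7 reads in any, among them TRIM22, an interferon-inducible restriction factor, and TRIM63, the muscle ligase MuRF1. The other 50 passed the filter on low counts in at least 1 experiment, 47 including TRIM31 in the first and 50 in the second. Counts of members below leave out TRIM31 and cover members that passed, which is not the whole family.

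In 3D against 2D the rest of the family went in both directions, with log2 fold changes of -1.65 to 2.24. TRIM46, TRIM7 and TRIM21 rose, and TRIM54, TRIM71, TRIM24, TRIM44, TRIM25 and TRIM37 fell, among 46 members tested (edgeR quasi-likelihood test, Benjamini-Hochberg adjusted p below 0.05 over all genes). This is 6.52% higher, against 20.0% of the 12924 genes tested other than TRIM31, called all genes from here on, and 13.0% lower, against 12.9% of all. The median log2 fold change was -0.01 in the members and 0.03 in all genes, so the shares of calls were below or near those of the whole table.

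TRIM21, the cytoplasmic antibody receptor, was at 50.9, 38.0 and 29 CPM in 3D, against 17.6, 18.7 and 16.9 CPM in 2D. All 3D libraries were above all 2D libraries, and the log2 fold change was 1.11 (SE 0.23, adjusted p = 0.00893). TRIM46, a microtubule-bundling protein of the neuronal axon start, was at 1.47, 1.6 and 2.39 CPM in 3D, against 0.32, 0.317 and 0.481 CPM in 2D, again without overlap (log2 fold change 2.24, SE 0.38, adjusted p = 0.00376, and 1.51, adjusted p = 0.0403, with the GC and length offset). The 2D levels of TRIM46 rest on only 6, 6 and 9 reads. TRIM7, a ligase first found through its binding to glycogenin, was at 15.7, 19.6 and 8.41 CPM in 3D, against 7.14, 6.23 and 7.15 CPM in 2D (log2 fold change 1.04, SE 0.32, adjusted p = 0.0356). The first pair of 3D values of TRIM7 came from the libraries that follow GC content, and without them its log2 fold change was 0.29. That fit holds a single 3D library and so no spread within 3D. For comparisons with 3D only its log2 fold changes are given.

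TRIM37, a centrosome and chromatin ligase mutated in mulibrey nanism, was at 13.1, 9.67 and 26.3 CPM in 3D, against 51.5, 51.4 and 48.8 CPM in 2D. Every 3D library was lower (log2 fold change -1.65, SE 0.35, adjusted p = 0.00946), and with 3D replicate 3 alone the value was -0.95. Antisense to TRIM37 lies PPM1E, whose reads cannot be told apart without strand. TRIM54, the muscle ligase MuRF3, was at 5.51, 4.87 and 1.84 CPM in 3D, against 11.8, 9.87 and 10.8 CPM in 2D. It too was lower in every 3D library (log2 fold change -1.46, SE 0.42, adjusted p = 0.0281), and with replicate 3 alone the value was -2.55.

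TRIM24, a bromodomain coregulator of nuclear receptors, was at 23.1, 18.4 and 36.9 CPM in 3D, against 48.5, 54.9 and 51.9 CPM in 2D (log2 fold change -1.01, SE 0.28, adjusted p = 0.0246). TRIM44, a RING-less member with a ubiquitin protease-type zinc finger, was at 78.3, 46.6 and 91.0 CPM in 3D, against 135, 135 and 138 CPM in 2D (log2 fold change -0.95, SE 0.25, adjusted p = 0.0222). Both were lower in all 3D libraries, but with the offset for GC content and length their values were -0.07 (adjusted p = 0.789) for TRIM24 and -0.06 (adjusted p = 0.803) for TRIM44. TRIM71 (log2 fold change -1.29, adjusted p = 0.0436) and TRIM25, the ligase of the RNA sensor RIG-I (-0.55, adjusted p = 0.0453), lay close to the threshold. Over 18 other ways of fitting or choosing libraries, TRIM21, TRIM46 and TRIM37 were called in all 18, TRIM54 in 13, TRIM24 and TRIM44 in 11, TRIM7 in 6 and TRIM71 and TRIM25 in 4. These 18, here and below, include the fit with a single 3D library.

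TRIM28 was at 366 CPM in 3D replicate 3, against 645, 639 and 628 CPM in 2D, but at 1020 and 1260 CPM in 3D replicates 1 and 2. Which way TRIM28 differed from 2D therefore depended on the 3D library. Its log2 fold change with all 3D libraries was 0.42 (adjusted p = 0.381), and with the GC and length offset it was -0.61 (adjusted p = 0.043).

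In the animal model against 2D, 6 members rose and the muscle ligase TRIM54 fell. The members called higher were TRIM9, TRIM10, TRIM72, TRIM46, TRIM71 and TRIM15, 6 of 46 tested or 13.0%, against 7.78% of all genes. TRIM54 was the 1 member called lower, or 2.17%, against 4.25% of all genes. The median log2 fold change was 0.22 in the members and 0.03 in all genes. In 24 members the animal libraries lay wholly above and in 12 wholly below the 2D libraries, which all genes did in 33.7% and 32.8% of cases.

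TRIM9, a brain-enriched ligase of axon guidance, was at 15.3, 7.69 and 10.3 CPM in the animal libraries, against 1.17, 1.69 and 2.03 CPM in 2D. All animal libraries were several times above 2D (log2 fold change 2.76, SE 0.54, adjusted p = 0.0115). TRIM72, the membrane repair protein MG53 of muscle, was at 50.8, 39.5 and 54.6 CPM in the animal libraries, against 11.9, 11.7 and 11.2 CPM in 2D (log2 fold change 2.06, SE 0.40, adjusted p = 0.0111). TRIM10, a member known from red cell maturation in mouse, was at 6.25, 6.33 and 4.5 CPM in the animal libraries, against 1.17, 1.11 and 1.5 CPM in 2D (log2 fold change 2.17, SE 0.39, adjusted p = 0.00826). None of these 3 overlapped between the groups.

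TRIM15, which lies beside TRIM10 and acts at focal adhesions, was at 24.5, 27.3 and 25.9 CPM in the animal libraries, against 8.97 to 10.1 CPM in 2D (log2 fold change 1.42, SE 0.33, adjusted p = 0.0256). TRIM71, the LIN41 repressor of mRNAs in early development, was at 3.73, 3.88 and 3.0 CPM in the animal libraries, against 0.959, 1.42 and 0.961 CPM in 2D (log2 fold change 1.66, SE 0.38, adjusted p = 0.0215). TRIM46 was at 1.14, 1.36 and 1.5 CPM in the animal libraries, against 0.32, 0.317 and 0.481 CPM in 2D (log2 fold change 1.82, SE 0.38, adjusted p = 0.0142). In each of these the lowest animal library was above the highest 2D library.

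TRIM54 was at 0.842, 1.63 and 1.74 CPM in the animal libraries, against 11.8, 9.87 and 10.8 CPM in 2D. It was the largest fall in the family (log2 fold change -2.94, SE 0.45, adjusted p = 0.00398) and was called under all 18 alternatives. The reads of TRIM54 can include those of UCN, which overlaps it on the opposite strand and stood at 5.23, 1.77 and 4.62 CPM in the animal libraries, against 1.28, 0.95 and 1.55 CPM in 2D. The direction of UCN was thus opposite to that of TRIM54. Its relatives TRIM55 (0.782, 0.544 and 0.06 CPM in the animal libraries, against 0.639, 0.475 and 0.587 CPM in 2D) and TRIM63 (0 reads in both) did not pass the test or the filter.

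**Figure D3:**
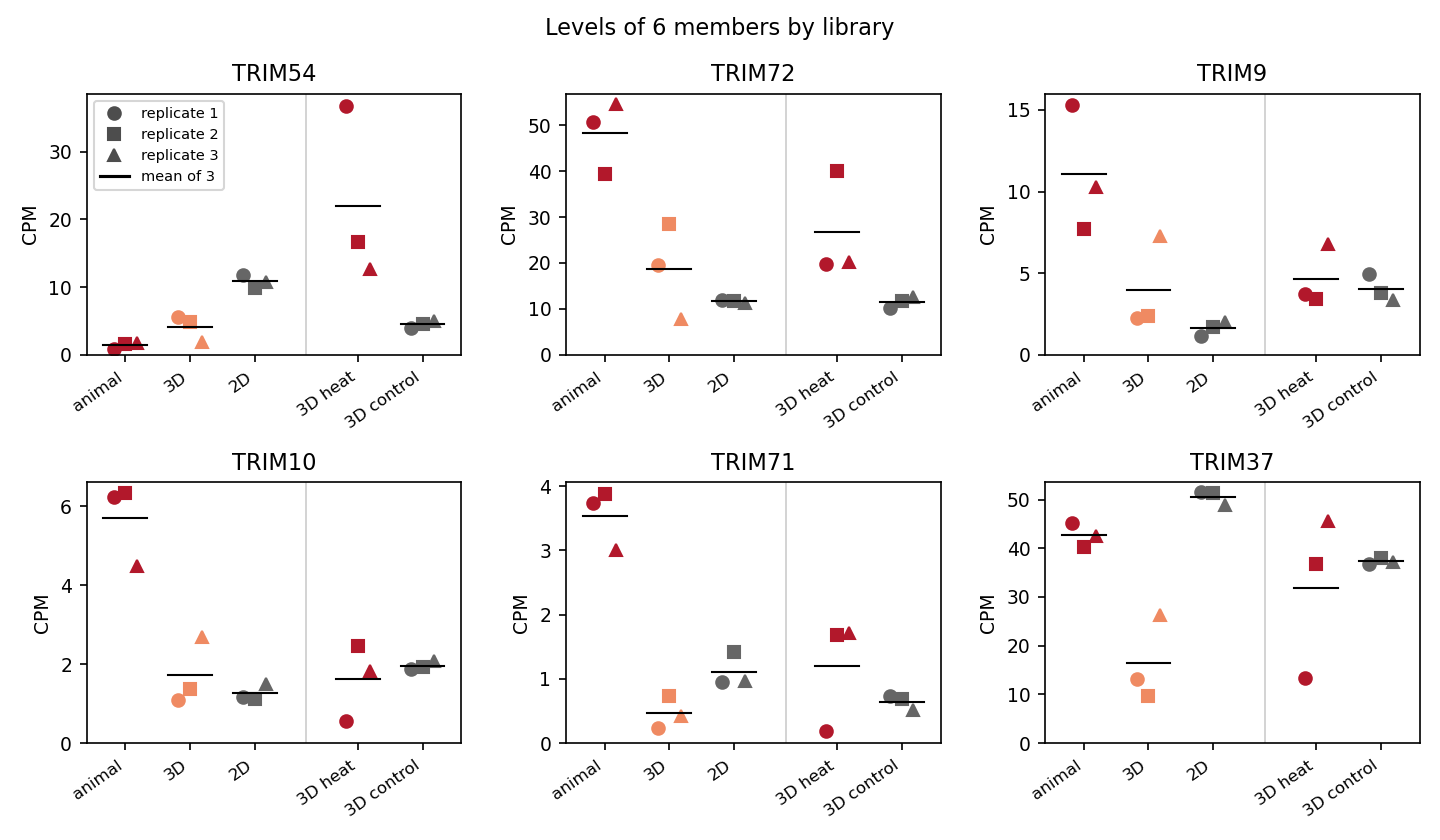
Levels in CPM of TRIM54, TRIM72, TRIM9, TRIM10, TRIM71 and TRIM37 in each library, with symbols for replicates and a bar at each group's mean. TRIM54 is lowest in the animal libraries and highest after heat, the means of TRIM72, TRIM9, TRIM10 and TRIM71 are highest in the animal model, and TRIM37 is lowest in 3D replicates 1 and 2 and heat replicate 1, the libraries that follow GC content.

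The counts for animal against 2D depended on the 3D libraries, with which the fit shares its estimate of spread, its filter on low counts and its scaling. The part of each was not tested. Without 3D replicates 1 and 2, 19 members were higher and 10 lower of 49 tested, against 28.4% higher and 27.2% lower of all genes, and the 7 members named above all remained called. Without 2D replicate 1, and likewise without 2D replicate 2, 0 members were called higher. The share of all genes in these fits is not given here, so this is not a result about the members alone. Of the 18 alternatives TRIM9, TRIM10 and TRIM46 were called in 16, TRIM72 in 15, TRIM71 in 13 and TRIM15 in 12. Of muscle markers, which bear on TRIM54 and TRIM72, 7 genes summed to 4.35 to 6.36 CPM in the animal libraries, against 14.0 to 15.7 CPM in 2D, a difference of ACTA1 alone (means of 4.63 CPM in the animal model, against 14.8 CPM in 2D), since CKM averaged 0.503 CPM in the animal model and was at 0 in 2D. Of red cell markers, which bear on TRIM10, 5 genes summed to 0.66 to 6.33 CPM in the animal libraries, against 0.107 to 0.422 CPM in 2D. Their part in the levels of these members was not tested.

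The animal model against the 3D model called more members. Higher in the animal model were TRIM71, TRIM10, TRIM9, TRIM72, TRIM37, TRIM24, TRIM44 and TRIM39, 8 of 46 or 17.4%, against 18.6% of all genes. Lower were TRIM54, TRIM62, TRIM7, TRIM34 and TRIM11, 5 of 46 or 10.9%, against 22.9% of all genes. These shares were near or below the background, and the median was 0.27 in the members and 0.10 in all genes.

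TRIM71 was at 3.73, 3.88 and 3.0 CPM in the animal libraries, against 0.233, 0.727 and 0.43 CPM in 3D, a log2 fold change of 2.95 (SE 0.42, adjusted p = 0.00139). Its 3D levels rest on only 3, 10 and 7 reads. TRIM10 was at 6.25, 6.33 and 4.5 CPM in the animal libraries, against 1.09, 1.38 and 2.7 CPM in 3D (log2 fold change 1.74, SE 0.39, adjusted p = 0.00879, and 1.06 without 3D replicates 1 and 2). Both were called under all 18 alternatives and neither overlapped between the groups. TRIM34, an interferon-inducible relative of TRIM5, was at 3.97, 3.95 and 4.8 CPM in the animal libraries, against 8.45, 7.71 and 9.57 CPM in 3D (log2 fold change -0.98, SE 0.23, adjusted p = 0.0109), a fall called under 17 of 18. Its exons are shared with the read-through TRIM6-TRIM34, so its reads and those of TRIM6 are uncertain.

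TRIM72 was at 50.8, 39.5 and 54.6 CPM in the animal libraries, against 19.6, 28.4 and 7.79 CPM in 3D, and TRIM9 at 15.3, 7.69 and 10.3 CPM in the animal libraries, against 2.25, 2.4 and 7.3 CPM in 3D. The 3 animal libraries were above the 3D libraries in both, for TRIM9 by a small margin over 3D replicate 3. The log2 fold changes were 1.43 (SE 0.39, adjusted p = 0.0195) for TRIM72 and 1.49 (SE 0.51, adjusted p = 0.0441) for TRIM9, and with 3D replicate 3 alone they were 2.62 and 0.59. Other members that rose were TRIM37 (log2 fold change 1.40, adjusted p = 0.0136), TRIM24 (1.38, 0.00603), TRIM44 (1.37, 0.00431) and TRIM39, a regulator of the anaphase-promoting complex (0.60, 0.0458). With the GC and length offset TRIM24 was at 0.31 (adjusted p = 0.167) and TRIM44 at 0.32 (adjusted p = 0.158), so that neither was called, and TRIM37 was at 0.68 (adjusted p = 0.00311). Without 3D replicates 1 and 2 TRIM37 was at 0.69, and TRIM39 was called in 4 of the 18 alternatives.

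TRIM62, a ligase of polarised epithelium, was at 3.55, 7.55 and 4.62 CPM in the animal libraries, against 15.5, 18.8 and 9.51 CPM in 3D (log2 fold change -1.43, SE 0.35, adjusted p = 0.012). Without 3D replicates 1 and 2 its log2 fold change was -0.88. TRIM54 (log2 fold change -1.48, adjusted p = 0.0262), TRIM7 (-1.21, 0.0178) and TRIM11 (-0.88, 0.0361) fell as well, but with 3D replicate 3 alone their values were -0.41, -0.48 and -0.12. The 3 comparisons of this experiment share their groups, so they are not independent of each other.

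After heat treatment the median tested member was higher than in the controls, but none of the 49 passed the test with all 6 libraries. Of 49 members, 0 were called higher and 0 lower by edgeR, against 0.0% and 0.0158% of the 12626 genes tested other than TRIM31, the lower ones being TNS4 and MAOA. At an unadjusted p below 0.05, 16 members were higher (32.7%) and TRIM66 lower (2.04%), against 11.8% and 8.97% of all genes, and DESeq2 called 8 members higher and 0 lower, against 6.53% and 4.62% of all genes. In 20 members the heated libraries lay wholly above and in 4 wholly below the controls, against 17.4% and 19.2% of all genes. The median log2 fold change was 0.37 in the members and 0.10 in all genes.

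After TRIM31, the muscle ligases TRIM55 and TRIM54 were the members with the largest log2 fold changes. TRIM55, MuRF2, was at 5.44, 1.16 and 3.88 CPM after heat, against 0.399, 0.34 and 0.29 CPM in the controls (log2 fold change 3.31, SE 0.66, adjusted p = 0.0937). Its control levels rest on only 7, 6 and 5 reads. TRIM54 was at 36.8, 16.6 and 12.7 CPM after heat, against 3.93, 4.53 and 4.93 CPM in the controls (log2 fold change 2.31, SE 0.46, adjusted p = 0.094). Neither overlapped between the groups, and in TRIM54 heat replicate 1 was the highest library of the series. UCN, opposite TRIM54, was at 2.86, 3.29 and 1.77 CPM after heat, against 2.57, 1.76 and 2.55 CPM in the controls, and TRIM63 had 1 read in the heated libraries and 3 in the controls.

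TRIM26, a SPRY ligase of the same chromosome 6 cluster as TRIM31, was at 236, 75.3 and 157 CPM after heat, against 50.3, 48.2 and 54.5 CPM in the controls (log2 fold change 1.62, SE 0.43, adjusted p = 0.123). TRIM72 was at 19.8, 40.0 and 20.2 CPM after heat, against 10.1, 11.7 and 12.6 CPM in the controls (log2 fold change 1.23, SE 0.35, adjusted p = 0.14). TRIM68, a coactivator of the androgen receptor, was at 34.5, 34.1 and 33.1 CPM after heat, against 19.0, 19.8 and 19.6 CPM in the controls (log2 fold change 0.81, SE 0.22, adjusted p = 0.125). Each was higher in every heated library, with the closest agreement between heated libraries in TRIM68.

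Without heat replicate 1, the library that follows GC content, 16 members were higher and 1 lower of 49, or 32.7% and 2.04%, against 14.0% and 14.8% of all genes. The largest among them were TRIM55 (log2 fold change 2.84, adjusted p = 0.0249), TRIM54 (1.72, 0.00622), TRIM72 (1.40, 0.0245), TRIM71 (1.39, 0.0248) and TRIM26 (1.19, 0.0349). The member called lower was TRIM14, an adaptor of MAVS signalling without a RING, at 23.0, 44.5 and 38.0 CPM after heat, against 55.6, 57.9 and 56.2 CPM in the controls. TRIM71 overlapped between the groups only through heat replicate 1, at 0.191 CPM beside 1.69 and 1.71 CPM in the other heated libraries and 0.741, 0.68 and 0.522 CPM in the controls. With the GC and length offset on all 6 libraries, 7 members were higher and 0 lower, against 5.38% and 5.51% of all genes. Those 7 were TRIM54, TRIM38, TRIM26, TRIM39, TRIM55, TRIM68 and TRIM72.

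**Figure D4:**
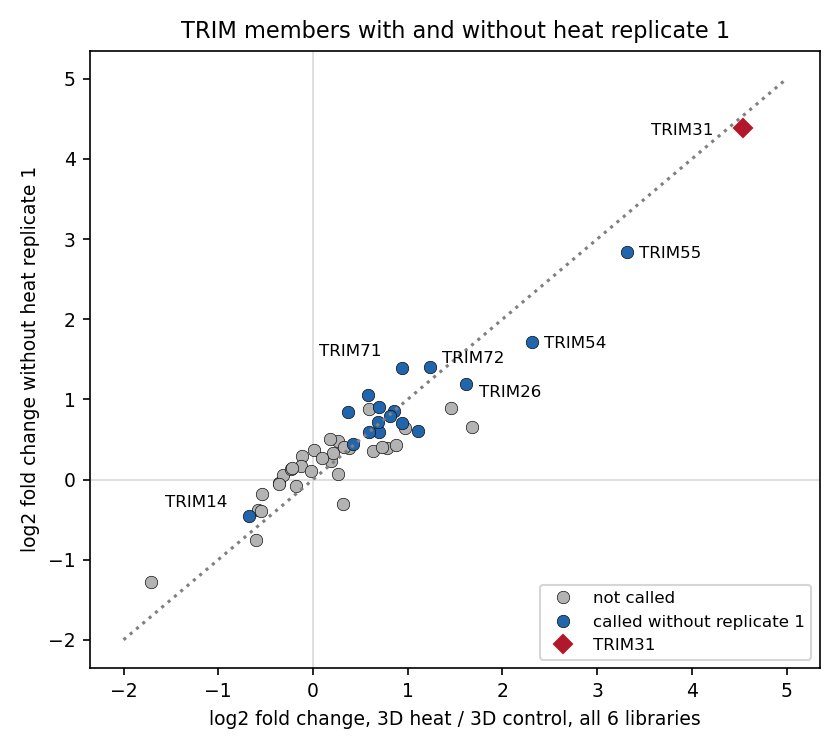
Log2 fold change of heat over control for the 50 tested members including TRIM31, from all 6 libraries on the x axis and without heat replicate 1 on the y axis, with members called in the second fit in blue and the dotted line at equal values. TRIM31 lies at 4.54 and 4.38, TRIM55 at 3.31 and 2.84, and TRIM54 at 2.31 and 1.72.

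The interferon-inducible members and those on chromosome 6 near TRIM31 are given with the shares of all genes called higher and lower, which were 20.0% and 12.9% in 3D against 2D, 7.78% and 4.25% in animal against 2D, and 18.6% and 22.9% in animal against 3D. Of the 8 tested members known to be induced by interferon in human cells, TRIM21 rose and TRIM25 fell in 3D against 2D, 0 were called in animal against 2D, TRIM34 fell in animal against 3D, and none was called after heat. Their median log2 fold changes were -0.04, -0.11, -0.07 and 0.26 in that order, beside 0.03, 0.03, 0.10 and 0.10 in all genes. Without heat replicate 1 the last was 0.32, with TRIM26 and TRIM38 higher and TRIM14 lower, against 14.0% and 14.8% of all genes. In the wider chromosome 6 region 6 other members were tested, the neighbours TRIM10, TRIM15, TRIM26 and TRIM39 with TRIM27 and TRIM38, which are outside the run of neighbours named above. Of these, 0 were called in 3D against 2D, TRIM10 and TRIM15 rose in animal against 2D, TRIM10 and TRIM39 rose in animal against 3D, and none was called after heat. The medians of these 6 were 0.06, 0.59, 0.47 and 0.82, and without heat replicate 1 the last was 0.74, with TRIM26, TRIM27, TRIM38 and TRIM39 higher, against 14.0% of all genes.

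By domain, the 21 tested members with a RING and a SPRY domain but no COS box had 2 higher and 1 lower in 3D against 2D, 3 higher and 0 lower in animal against 2D, and 3 higher and 4 lower in animal against 3D, beside the shares of all genes given above. Of the 3 tested microtubule-binding members of the COS box and SPRY class, TRIM46 rose in 3D, TRIM9 and TRIM46 rose in animal against 2D, and TRIM9 rose in animal against 3D. Among the 4 bromodomain members TRIM24 fell in 3D against 2D and rose in animal against 3D. TRIM-type proteins under other names included PML, the organiser of nuclear bodies, at 231, 325 and 112 CPM in 3D, against 55.1, 59.8 and 57.7 CPM in 2D (log2 fold change 1.90, SE 0.33, adjusted p = 0.00446). That log2 fold change was 0.96 when 3D replicates 1 and 2 were left out. The midline proteins MID1 (-1.23, adjusted p = 0.00636) and MID2 (-0.79, adjusted p = 0.0248) fell in the same comparison, but with the GC and length offset MID1 was at -0.37 (adjusted p = 0.149).

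Partners of the family were read from lists chosen with earlier results of these data known. Of 18 tested genes of RNA sensing and the inflammasome, 7 rose and IL18 fell in 3D against 2D, where 20.0% of all genes rose and 12.9% fell, the largest rises being IL1B (log2 fold change 3.20, adjusted p = 0.00199) and PYCARD, the inflammasome adaptor (2.52, 0.00554). PYCARD was at 1.01 with 3D replicate 3 alone. In animal against 2D, 4 rose and 0 fell, where 7.78% of all genes rose and 4.25% fell, among them CASP1, the inflammasome protease (3.29, 0.00547), and IFIH1, the RNA sensor MDA5 (2.85, 0.0145). Without heat replicate 1, 3 of 18 tested were higher after heat, as were 14.0% of all genes, namely DDX58, the RNA sensor RIG-I, with IFIH1 and CASP1. MAVS, the partner of TRIM31, was at 116, 133 and 133 CPM in the animal libraries, 180, 234 and 122 CPM in 3D and 151, 149 and 144 CPM in 2D, and at 133, 163 and 109 CPM after heat, against 163, 170 and 178 CPM in the controls. MAVS did not share the order of TRIM31. NLRP3, the other partner of TRIM31 named above, had 1 read in 3D control replicate 1, 2 in heat replicate 3 and 0 in every other library.

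Of 17 tested interferon response genes, 9 rose and 0 fell in 3D against 2D, 8 rose and 0 fell in animal against 2D, and 3 rose and 3 fell in animal against 3D. The shares of all genes that rose and fell were 20.0% and 12.9%, 7.78% and 4.25%, and 18.6% and 22.9% in these comparisons. IFI27 was the gene that rose in all 3 first-experiment comparisons, by log2 fold changes of 3.27 in 3D over 2D (adjusted p = 0.00247), 4.99 in animal over 2D (0.000645) and 1.72 in animal over 3D (0.011). With the GC and length offset these were 1.90 (adjusted p = 0.00641), 4.56 (7.58e-05) and 2.66 (0.000323). Of 17 ubiquitin and E1 and E2 enzyme genes, which supply the ubiquitin that TRIM ligases transfer, UBE2E2 was the 1 that fell in animal against 2D and 0 rose, and UBE2N was the 1 that fell in 3D against 2D. No gene of these lists was called after heat with all 6 libraries. UBE2N, the E2 of chains linked through lysine 63, had a log2 fold change of -0.86 (SE 0.17, adjusted p = 0.00744) in 3D against 2D and 1.20 (SE 0.17, adjusted p = 0.00154) in animal against 3D. With the offset fitted to GC content and transcript length, UBE2N had log2 fold changes of 0.21 (adjusted p = 0.626) and -0.04 (adjusted p = 0.933) in these 2 comparisons.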

How the data were processed

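RNA of MHCC-97H in 5 groups of 3 libraries was sequenced as single-end reads on a BGISEQ platform, with no strand-marking step, per the labels' protocols. The submitters' processing notes name HISAT2 (no version) and hg19. How reads were counted, with which annotation and strand setting, and whether host reads were removed, is not given in the sources used here. The deposited table holds raw counts of reads, 1 row per symbol. In 27 rows the symbol had become a date, and these were not named.

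The tests used edgeR 4.0.16 under R 4.3.3 (filterByExpr by group, TMM, robust quasi-likelihood test with group as its only term), on the 9 libraries of the first experiment and separately on the 6 of the second. Calls needed an adjusted p (Benjamini-Hochberg, over all genes tested) below 0.05. TRIM31, chosen for its levels, stayed in the fits, but its p is not used and it is left out of shares of all genes. CPM were computed over all 15 libraries, as mean ± SD. Transcript length, GC content (for 99.1% of 13227 tested genes) and exon overlaps come from GENCODE 29, matched by symbol, and promoter windows from RefSeq on GRCh38.p14, a build other than hg19. Of 118 listed genes 117 matched, all but PECAM1. The values of 1 listed gene are not reported here. The methods were tested on simulated counts.

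The members and all lists were chosen with earlier results of these data known. The genes named are TRIM31, every called member (with values in every library for the 6 largest rises and 6 largest falls above 1 CPM), 2 to 4 members of a list with the smallest adjusted p, the 5 genes most like TRIM31, and the 3 members most and least like it. RNF39, UCN, MAVS, NLRP3, TRIM28 and members described in the heat comparison were added after their values were seen. Replicate numbers did not pair the libraries. Alternatives were DESeq2 1.42.0, median-ratio scaling, no filter, a stricter filter (10 reads), replicate number as a block, an offset fitted to GC content and transcript length by splines of 5 degrees of freedom, both together, each library left out, 3D replicates 1 and 2 left out, and only the groups compared, which gives 18 for the first experiment and 13 for the second.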

Additional observations from a re-analysis of the deposited data

How the results depend on the processing

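The direction of the TRIM31 change held in every alternative run, and its size ranged over log2 fold changes of 2.99 to 3.64 in 3D over 2D, 6.0 to 6.74 in animal over 2D, 2.60 to 3.44 in animal over 3D and 4.36 to 4.66 in heat over control. Counts of other members called did not hold, and calls over all genes moved as well. After heat, 0.0% of all genes were called higher, against 6.53% with DESeq2, 5.38% with the offset and 14.0% without heat replicate 1. For most other alternatives here the share of all genes is not given. Shifts in the counts below are therefore not results about the members alone. In 3D against 2D, against 3 higher and 6 lower, there were 7 higher with DESeq2, 5 with the GC and length offset and 2 to 14 with each library left out. There were 1 lower with only the groups compared and 1 to 15 with each library left out. In animal against 2D, against 6 higher and 1 lower, there were 19 higher and 10 lower without 3D replicates 1 and 2, 19 and 10 with only the groups compared, 2 lower with DESeq2, 6 lower with the offset, and 0 to 14 higher and 1 to 4 lower with each library left out. In animal against 3D, against 8 higher and 5 lower, there were 17 and 2 without 3D replicates 1 and 2, 4 and 1 with only the groups compared, and 4 to 20 and 2 to 10 with each library left out. After heat, against 0 higher and 0 lower, there were 8 higher with DESeq2, 7 higher with the offset, and 0 to 16 higher and 0 to 1 lower with each library left out, the 16 being without heat replicate 1 and 3 without heat replicate 2. Leaving out 2D replicate 1 or 2 left 0 members higher in animal against 2D, leaving out any 2D library left 1 member lower in 3D against 2D, and of single libraries, leaving out 3D replicate 3 gave the highest counts in each of the 3 comparisons with it in the fit. The cause was not tested.

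Same-numbered libraries did not deviate together (correlations of -0.242 to 0.182), so the replicate block is a check only. With it, 3 members were lower in 3D against 2D and 3 lower in animal against 3D. With the block and the offset together, 5 were higher and 3 lower in 3D against 2D, 4 lower in animal against 2D, and 4 higher and 1 lower after heat. Shares of all genes with the block are not given here. Of named members, TRIM52 reversed after heat, to -0.05 without heat replicate 3, and its values with each library left out ran from -0.05 to 0.84. The median of all genes moved by over 0.1 under DESeq2 in 3D against 2D, to 0.14, and under the offset in animal against 2D, to -0.12, and in animal against 3D, to -0.09. Members with few reads, such as TRIM31 in 2D, are limited by depth.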

Other observations

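A few family members had reads in heated cells only, among them TRIM49C with 1 read in heat replicate 3. The share of all genes with reads in heated libraries only is not given here, so this is not a result about the members. TRIM43, a primate gene of the early embryo, had 7, 0 and 2 reads in the heated libraries and 0 in the other 12, and its copy TRIM43B had 2, 1 and 2 reads in the heated libraries and 0 in the other 12. Both are targets of DUX4, a transcription factor of the cleavage-stage embryo. The other genes below, mostly DUX4 targets, were looked up after these values had been seen, so they are a description with no test. RFPL2, a TRIM-like RING and SPRY gene, had 56, 19 and 92 reads in the heated libraries, against 7, 6 and 5 in the 3D controls and 58 in the other 12 libraries together. TRIML2, a TRIM-like gene not taken here as a DUX4 target, had 353, 72 and 398 reads in the heated libraries, against 10, 12 and 9 in the controls and 134 in the other 12 together. LEUTX, KHDC1L, PRAMEF1 and DUXA had 3 reads each in the heated libraries and 0 in the others. PRAMEF2 and SLC34A2 had 2 reads each and MBD3L3 and RFPL1 had 1 each there, again with 0 in the others. TPRX1 had 4 reads in the heated libraries and 2 in the others. The remaining genes did not favour the heated libraries, with KDM4E at 1 read there and 4 in the others, RFPL4B at 3 and 6, and CCNA1 at 1 and 1. ZSCAN4, among the best known DUX4 targets, had 1 read in the heated libraries and 2 in the others. MBD3L2, PRAMEF12, TRIM48, TRIM49 and TRIM51 had 0 in every library. Members of such families are near-identical copies, so their reads are uncertain.

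TRIML2 moved the other way in the animal model, with 1, 2 and 2 reads there, against 26, 28 and 19 in 2D (log2 fold change -3.54, adjusted p = 0.00377, edgeR).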
